A study of Homo sapiens with 2 samples.

Results

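The collagen chains, the enzymes that modify and crosslink them, the collagen chaperone SERPINH1 and 3 further matrix proteins were examined in H1944, an established line of human lung adenocarcinoma cells. All 44 genes whose symbol is COL, a number, A and a number were taken, together with LOX, LOXL1, LOXL2, LOXL3, LOXL4, PLOD1, PLOD2, PLOD3, SERPINH1, FN1, SPARC and POSTN, which made 56 of the 59125 rows. The rule reads gene names alone, and it was set with earlier results of these data known. The study compared RNA from H1944 cells carrying a control hairpin (shCON) with RNA from H1944 cells carrying a hairpin against the deubiquitinase USP12 (shUSP12), with 1 library per group. Per the methods, hairpins were delivered by lentivirus. More than 1 USP12 hairpin is described there, and the labels do not say which was sequenced. The count column of the control table carries the tag SHRFP, although green fluorescent protein is the control target given in the methods.

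Collagens are triple helices, wound together in the endoplasmic reticulum. Fibrillar collagens form the tensile fibres of stroma, type IV collagen forms the sheet under epithelia and vessels, and the remaining types decorate fibrils, anchor epithelia or span membranes. Lysyl hydroxylases (the PLOD genes) prepare lysines for crosslinking, the chaperone HSP47 (SERPINH1) holds the folded helix, and lysyl oxidases (LOX and the LOXL genes) crosslink collagen and elastin outside the cell. In carcinomas, fibrillar collagen comes largely from stromal fibroblasts, and type IV chains are also made by the epithelial cells themselves.

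The shCON table summed to 18249112 counts and the shUSP12 table to 17475359 counts. Levels are CPM, counts scaled to 1000000 per library after correction with TMM factors, which assume that most genes do not differ. Differences are log2 ratios of shUSP12 over shCON after adding 0.1 CPM, followed in brackets by the 95% interval of the ratio. The interval covers counting error only, and with 1 library per group no difference could be checked in replicates or given a p-value. USP12 had 711 counts in shCON and 219 in shUSP12, or 40.8 and 11.97 CPM, which left 29.3% of the shCON level (−1.76 [−1.99, −1.55]). The 2 libraries also differed in genes of cell identity. Of 10 epithelial and lung markers, 7 were measured at a mean of at least 1 CPM and 4 of these (57.1%) were higher in shUSP12 by 2-fold or more, where 6.48% of all 14612 rows with such a mean were, among them KRT19 (32 and 4452 counts), EPCAM (115 and 1566 counts) and the lung transcription factor NKX2-1 (0 and 312 counts), while KRT8 had the most counts of them in both (85596 and 62180 counts). KRT8 (−0.53 [−0.55, −0.52]) and KRT18 (24132 and 18096 counts, −0.49 [−0.51, −0.46]) went the other way, by less than 2-fold. Thus 5 of the 7 were higher and 2 lower. The summed epithelial markers were 7145 CPM in shCON and 6094 CPM in shUSP12, with 3 of the 10 at 0 in shCON and 1 in shUSP12. SFTPB was at 0 in both. In all, 119 rows went from 3 counts or fewer to 50 or more in shUSP12, and 1 row did so in the reverse direction. Among 509 rows of chromosome Y, 2 exceeded 3 counts in the shCON library and 15 in the shUSP12 library. With 1 library per group, the hairpin and any other difference between the cell stocks or cultures cannot be told apart, and this holds for every ratio given here. The part of these differences in the results that follow was not tested.

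Of the 56 genes, 35 reached a mean of 1 CPM and 21 did not. Among the 35, 7 rose by 2-fold or more in shUSP12 (COL13A1, SPARC, COL28A1, COL9A2, LOX, COL6A3 and LOXL2), where 6.48% of the 14612 rows that reached this mean (the rows tested) rose as much. COL1A1, LOXL1, COL4A1 and COL22A1 fell as much, or 11.4% of the 35, where 3.01% of all rows did. The members thus passed the threshold more often than the rows at large in both directions, and their median was −0.04, beside −0.01 for all rows tested. Most of the rises were in genes with few counts. At a mean of at least 10 CPM, 22 members were left, of which SPARC and LOXL2 rose and COL1A1 and COL4A1 fell, against 2.28% of 9534 rows that rose and 1.12% that fell. Scaling to total counts without TMM factors moved the median of all rows by 0.13. Under it COL4A1 (−0.94) and COL22A1 (−0.89) no longer passed the 2-fold threshold.

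**Figure D1:**
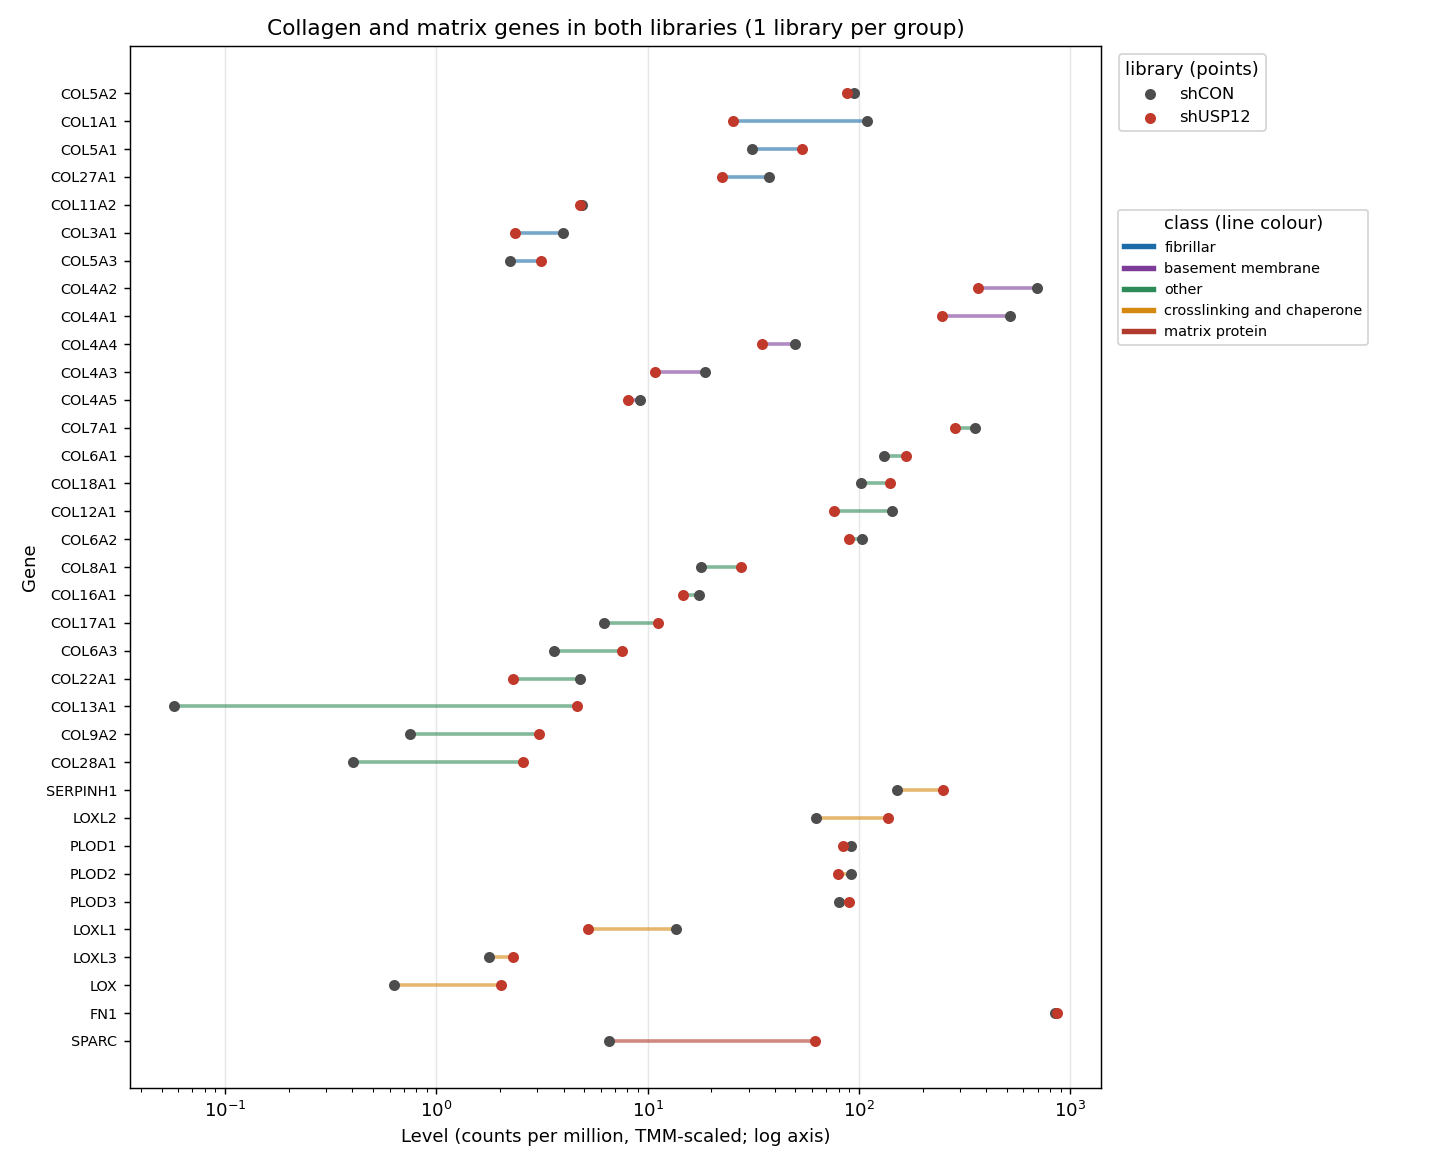
Level of each of the 35 genes with a mean of at least 1 CPM (vertical axis) in CPM on a log axis (horizontal axis). Grey points are the shCON library, red points the shUSP12 library, and the line between them is coloured by class. COL4A1, COL4A2, COL12A1 and COL1A1 lie to the left in shUSP12, and SPARC, LOXL2 and SERPINH1 to the right.

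The type IV chains, which form the basement membrane network, were examined first because they held most collagen counts in shCON. Their genes stand in pairs, head to head, with the starts of the partners so close that they share upstream sequence. Part of the sequence between the partners is shown here for the 3 pairs, since it is what they share, on the plus strand of GRCh38.p14, from RefSeq promoter windows. The capitals mark CCAAT and GGGCGG (a GC box) on either strand, which were searched together with TATAAA. The first window is chr13:110307158-110307257, between COL4A1 on the minus strand and COL4A2 on the plus strand, the next is chr2:227164454-227164623, between COL4A4 on the minus strand and COL4A3 on the plus strand, and the last is chrX:108439588-108439837, between COL4A6 on the minus strand and COL4A5 on the plus strand.
COL4A1 and COL4A2: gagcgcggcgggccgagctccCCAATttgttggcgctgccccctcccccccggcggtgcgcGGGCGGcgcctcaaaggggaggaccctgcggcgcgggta
COL4A4 and COL4A3: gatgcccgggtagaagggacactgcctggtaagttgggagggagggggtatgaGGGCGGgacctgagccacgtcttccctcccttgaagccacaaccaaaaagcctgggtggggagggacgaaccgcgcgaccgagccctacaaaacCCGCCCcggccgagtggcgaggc
COL4A6 and COL4A5: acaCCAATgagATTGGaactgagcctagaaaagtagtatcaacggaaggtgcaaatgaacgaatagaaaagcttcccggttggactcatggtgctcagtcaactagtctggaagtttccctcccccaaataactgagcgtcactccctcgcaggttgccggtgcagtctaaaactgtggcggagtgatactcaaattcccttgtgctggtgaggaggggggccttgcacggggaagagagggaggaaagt

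The COL4A1 and COL4A2 window, 100 bases of the 126 between the RefSeq starts, held 1 CCAAT and 1 GC box and was 78.0% G and C. The COL4A4 and COL4A3 window held 2 GC boxes and no CCAAT, and the COL4A6 and COL4A5 window held 2 CCAAT and no GC box. None held TATAAA. For scale, CCAAT was found in the 250 bases before the start of 33.0% of 27305 RefSeq promoters and of 12 of the 43 members matched there (27.9%), the GC box in 42.3% of promoters and 24 of the 43 members (55.8%), and TATAAA in 11.1% and 6 of the 43 members. The printed windows are 100, 170 and 250 bases long, so the shares, taken over 250 bases, match only the last in length. These matches are letters in a window and say nothing of binding.

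All 5 type IV chains with a mean of at least 1 CPM were lower in shUSP12, under each of the 4 scalings, with a median of −0.80. For scale, 7461 of all 14612 rows tested were below 0 with TMM factors and 7151 above. The counting interval lay wholly below 0 for 4251 of these rows and wholly above for 3955, so an interval without 0 was common. COL4A2 had 12087 counts in shCON and 6691 in shUSP12, or 693.5 and 365.7 CPM (−0.92 [−0.97, −0.88]). Its partner COL4A1 fell from 9038 to 4523 counts, or from 518.5 to 247.2 CPM (−1.07 [−1.12, −1.02]). These chains, which make the type IV molecule found in nearly all basement membranes, therefore differed by almost the same share, and of the pair only COL4A1 passed the 2-fold threshold.

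The chains of more restricted basement membranes, such as those of glomerulus and alveolus, were lower to varying extents. COL4A3 had 327 and 197 counts, or 18.8 and 10.8 CPM (−0.80 [−1.06, −0.54]). COL4A4 had 870 and 634 counts, or 49.9 and 34.7 CPM (−0.53 [−0.68, −0.38]). The interval of COL4A3 included the value of COL4A2, whereas that of COL4A4 lay nearer 0. The interval of COL4A5 (160 and 148 counts, −0.18 [−0.51, 0.15]) included 0. COL4A6, chosen here after its values were seen, had 2 counts in shCON and 11 in shUSP12, a ratio of 5.24 with a counting interval of 1.14 to 48.6. It was thus the type IV gene that did not point downwards, at a level close to the limit of the depth.

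The summed type IV level was 1290 CPM in shCON and 667.0 CPM in shUSP12, or 51.7% of the shCON level (−0.95 [−0.98, −0.92]). COL4A1 and COL4A2 carried nearly all of it, with 1212 and 612.9 CPM. The other 4 type IV genes summed to 77.97 and 54.1 CPM (−0.53 [−0.65, −0.41]). Whether partner genes differed equally was read from the odds of their counts. COL4A1 differed slightly more than COL4A2 (log2 odds −0.15 [−0.21, −0.08]), and the interval of COL4A3 over COL4A4 included 0 (−0.27 [−0.58, 0.03]).

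**Figure D2:**
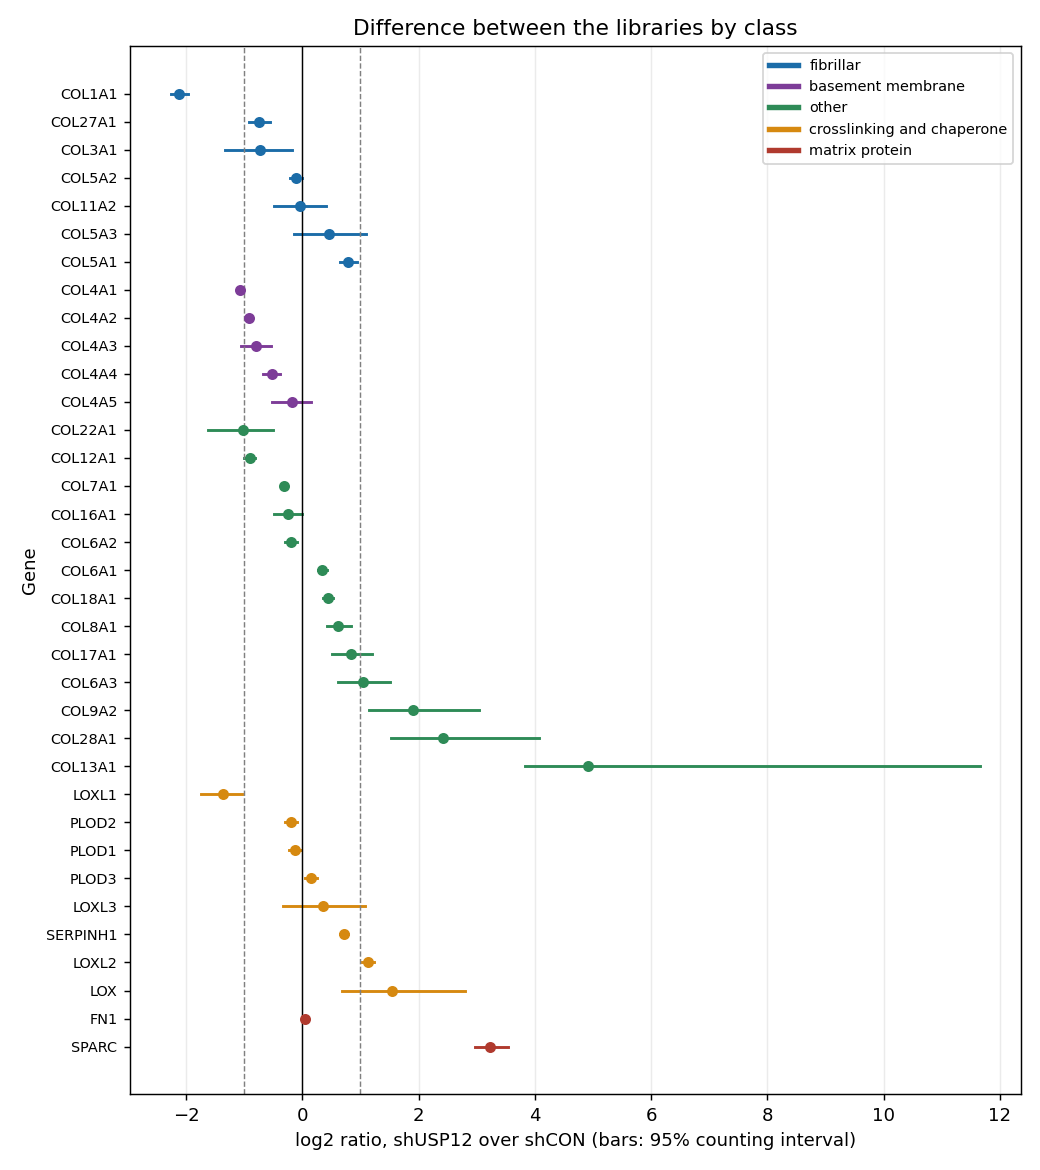
Log2 ratio of shUSP12 over shCON for each gene with a mean of at least 1 CPM (points, horizontal axis), grouped and coloured by class, with bars for the 95% counting interval. The type IV chains all lie below 0, from −1.07 to −0.18, whereas the other non-fibrillar chains spread from −1.02 to 4.91.

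Among the fibrillar chains, 7 of 11 had a mean of at least 1 CPM. None of the 7 rose by 2-fold and 1 fell (14.3%), where 6.48% and 3.01% of all rows tested did. Their median was −0.10, which turned to 0.03 with total counts alone. COL1A1, the major chain of type I collagen, fell from 1911 to 462 counts, or from 109.6 to 25.3 CPM (−2.11 [−2.27, −1.97]). It ranked 24 from the lowest of the 14612 rows tested. Its partner COL1A2, named after its values were seen, had 0 counts in shCON and 3 in shUSP12, at or under the limit of 3 counts in both (0.172 and 0.164 CPM), so that the partner with which COL1A1 usually assembles was not detectable at this depth in either library.

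The type V chains, which start fibrils and set their width, did not move as a unit. COL5A1 had 543 and 987 counts, or 31.2 and 53.9 CPM (0.79 [0.64, 0.95]). COL5A2 had 1647 and 1608 counts, or 94.5 and 87.9 CPM (−0.10 [−0.20, 0.00]), and turned to 0.03 with total counts alone. The odds of COL5A1 over COL5A2 counts were 1.86 times as high in shUSP12 as in shCON (log2 0.90 [0.71, 1.08]), although both enter the same molecule. COL5A3, a minor chain, had 39 and 57 counts, and its interval included 0 (0.46 [−0.14, 1.10]).

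COL3A1, the chain of type III collagen, lies beside COL5A2 on chromosome 2, 19151 bases away. It had 69 and 43 counts, or 3.96 and 2.35 CPM (−0.73 [−1.34, −0.18]), and was lower relative to COL5A2 (log2 odds −0.65 [−1.24, −0.07]). COL27A1, a fibrillar chain of cartilage, had 655 and 411 counts, or 37.6 and 22.5 CPM (−0.74 [−0.92, −0.56]). COL11A2 had 85 and 87 counts (−0.04 [−0.48, 0.41]), which became 0.09 with total counts alone. COL2A1, COL11A1 and COL24A1 were below 20 counts in both libraries.

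Summed, the fibrillar chains gave 284.7 CPM in shCON and 201.0 CPM in shUSP12 (−0.50 [−0.56, −0.44]). Without COL1A1 the sums were 175.0 and 175.8 CPM (0.01 [−0.07, 0.08], or 0.14 with total counts alone). The lower sum therefore lay in COL1A1. With TMM factors, the higher COL5A1 was offset by the lower COL27A1, COL5A2 and COL3A1.

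The 27 collagen genes outside these classes moved in both directions, with 13 at a mean of at least 1 CPM and 8 of these above 0. By 2-fold, 4 of the 13 rose (30.8%) and 1 fell (7.69%), beside 6.48% and 3.01% of all rows tested. Their median was 0.44 but their summed level was 889.2 CPM in shCON and 834.7 CPM in shUSP12 (−0.09 [−0.12, −0.06]), and this sum turned to 0.04 with total counts alone. Median and sum thus differed in sign, since the abundant COL7A1 and COL12A1 were lower. Without these the sums were 390.5 and 472.3 CPM (0.27 [0.23, 0.32]).

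COL7A1, the anchoring fibril collagen that ties epithelia to the stroma, had 6202 and 5233 counts, or 355.8 and 286.0 CPM (−0.32 [−0.37, −0.26]). The chains that sit on the surface of fibrils (FACIT collagens) were mostly lower, with 3 of the 4 at a mean of at least 1 CPM below 0. COL12A1 had 2489 and 1398 counts, or 142.8 and 76.4 CPM (−0.90 [−0.998, −0.81]). COL16A1 had 304 and 270 counts (−0.24 [−0.48, 0.00]). COL22A1, found at tissue junctions, fell from 83 to 42 counts (−1.02 [−1.62, −0.50]), and missed the threshold with DESeq2 size factors, with total counts and with 1 CPM added. COL9A2, a cartilage chain, went the other way and rose from 13 to 56 counts (1.90 [1.15, 3.03], or 1.22 with 1 CPM added). Its partners were COL9A1, at 0 in both libraries, and COL9A3, below 20 counts. COL14A1, named after its values were seen, had 0 and 13 counts, which is 4.13-fold higher in shUSP12 when the 0 is set to the limit of 3 counts per library, while the lower end of the counting interval of the ratio was 2.90.

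The beaded filament chains of type VI collagen, a molecule of COL6A1, COL6A2 and another chain such as COL6A3, changed unequally. COL6A1 had 2285 and 3045 counts, or 131.1 and 166.4 CPM (0.34 [0.27, 0.42]). COL6A2, 93061 bases away on chromosome 21 and on the same strand, had 1797 and 1646 counts, or 103.1 and 89.96 CPM (−0.20 [−0.29, −0.10]). The odds of COL6A1 over COL6A2 counts were 1.45 times as high in shUSP12 (log2 0.54 [0.42, 0.67]). COL6A3 rose from 63 to 138 counts, or from 3.61 to 7.54 CPM (1.04 [0.62, 1.51]), which missed the threshold with upper quartile scaling and with 1 CPM added. The log2 odds of COL6A1 over COL6A3 were −0.72 [−1.18, −0.27]. Per kilobase of exon union, COL6A1 still stood at 141 times the level of COL6A3 in shCON and 85.8 times in shUSP12.

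The transmembrane collagens were low in shCON. COL13A1, found at cell adhesions, had 1 count in shCON and 85 in shUSP12, or 0.0574 and 4.65 CPM, a ratio of 80.97 with a counting interval of 14.1 to 3235. With 0.1 CPM added to both levels its log2 ratio was 4.91, with 0.01 CPM 6.11 and with 1 CPM 2.42, so its size depended on the value added. It was the 1 member among the 119 rows nearly silent in shCON. COL17A1, the hemidesmosome collagen of basal epithelial cells, had 108 and 205 counts, or 6.20 and 11.2 CPM (0.84 [0.51, 1.20]). COL28A1, which belongs to none of these groups, rose from 7 to 47 counts (2.41 [1.52, 4.07]), or 1.35 with 1 CPM added.

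COL8A1, a network-forming chain, had 311 and 503 counts, or 17.8 and 27.5 CPM (0.62 [0.42, 0.83]). COL18A1, a basement membrane collagen whose end fragment is endostatin, had 1790 and 2552 counts, or 102.7 and 139.5 CPM (0.44 [0.35, 0.53]). It was thus higher while the type IV chains of the same structure were lower. Of its exon bases, 18.5% overlap SLC19A1 on the opposite strand, whose counts were 1357 and 1054, and whether counting used the strand is not given in the sources used here. COL15A1, a relative of COL18A1, was below 1 CPM on average, with 20 and 8 counts (−1.22 [−2.78, −0.15]).

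Of the 21 members below a mean of 1 CPM, 20 had under 20 counts in both libraries. COL6A5, COL9A1, COL19A1, COL23A1 and COL25A1 were at 0 in both. The others not yet named are COL6A6, COL8A2, COL10A1, COL20A1, COL21A1 and COL26A1.

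As a share of the counts of all 44 collagen genes, type IV made up 52.4% of 42944 counts in shCON (Clopper-Pearson 95% interval 51.9% to 52.8%) and 39.2% of 31155 in shUSP12 (38.6% to 39.7%). The fibrillar share was 11.6% and 11.8%, and that of the others 36.1% and 49.0%. These are parts of a total that was itself lower in shUSP12. The summed level of the others was nearly level (−0.09, or 0.04 with total counts alone) although their share was larger. Summed collagen was 2464 CPM in shCON and 1703 CPM in shUSP12, or 69.1% of the shCON level (−0.53 [−0.55, −0.51]). Leaving out COL4A1 and COL4A2, it was 1252 and 1090 CPM (−0.20 [−0.23, −0.17]), or −0.07 with total counts alone.

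Counts favour long transcripts, so shares were also taken per kilobase. With the union of all exons as length, type IV made up 36.9% and 24.5%, and with the canonical transcript 51.6% and 36.9%. The beaded filament chains went from 20.5% to 28.6% by the exon union and from 16.2% to 24.4% by the canonical transcript. Their summed level was 237.8 CPM in shCON and 264.0 CPM in shUSP12. Type IV was the smaller share in shUSP12 under either length.

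**Figure D3:**
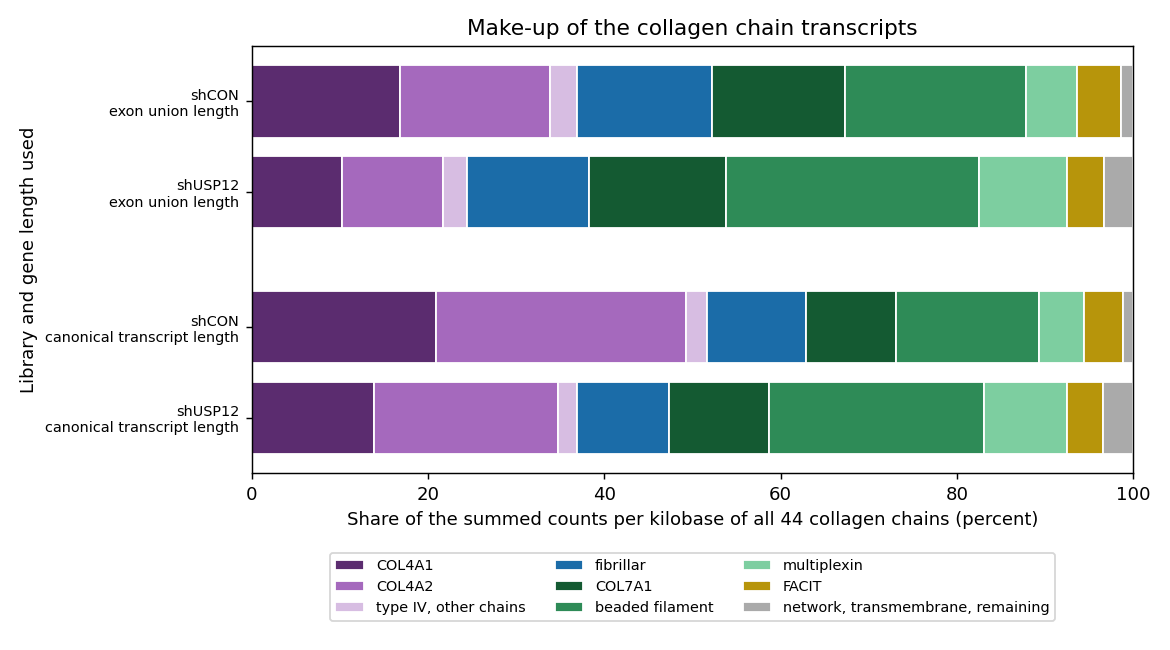
Stacked bars of the share of each collagen group (percent, horizontal axis) in the summed counts per kilobase of all 44 collagen chains, for the 2 libraries with the length taken as the exon union (upper pair) or the canonical transcript (lower pair). COL4A1 and COL4A2 take a smaller share in shUSP12, and the beaded filament and multiplexin chains a larger one.

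Of the genes that modify and crosslink collagen, 8 of 9 had a mean of at least 1 CPM, with a median of 0.25. By 2-fold, 2 of the 8 rose (25%) and 1 fell (12.5%), beside 6.48% and 3.01% of all rows tested. The lysyl oxidases differed among themselves. LOXL2 rose from 1096 to 2518 counts, or from 62.9 to 137.6 CPM (1.13 [1.03, 1.23]). LOXL1, which acts mainly on elastin, fell from 237 to 95 counts, or from 13.6 to 5.19 CPM (−1.37 [−1.75, −1.04]). LOX rose from 11 to 37 counts, or from 0.631 to 2.02 CPM (1.54 [0.68, 2.80]), and missed the threshold with 1 CPM added (0.89). LOXL1 and LOXL2 thus passed the threshold in opposite directions at measurable levels, and the summed lysyl oxidases were 79.2 and 148.0 CPM, mostly LOXL2.

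LOXL3 had 31 and 42 counts and an interval that included 0 (0.35 [−0.34, 1.09]), and 20.7% of its exon bases overlap HTRA2 on the opposite strand. LOXL4 was below 20 counts in both libraries. For LOXL1, 9.21% of exon bases overlap LOXL1-AS1, with 108 and 101 counts.

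The lysyl hydroxylases were nearly level. PLOD1 had 1604 and 1537 counts (−0.13 [−0.23, −0.03], and 0.00 with total counts alone). PLOD2, which makes the hydroxylysines of bone-type crosslinks, had 1599 and 1458 counts (−0.20 [−0.31, −0.10]). PLOD3, which also adds sugars to collagen, had 1406 and 1638 counts (0.15 [0.05, 0.25]). Their sum was 264.4 and 253.2 CPM (−0.06 [−0.12, 0.00], and 0.07 with total counts alone), so no direction was shared by the family.

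SERPINH1, the collagen-specific chaperone, had 2643 and 4546 counts, or 151.6 and 248.5 CPM (0.71 [0.64, 0.78]). It was higher while the summed collagen was lower. Per kilobase of canonical transcript, it was at rank 4 among the members in shCON and at rank 1 in shUSP12.

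The remaining matrix proteins ran from level to strongly different. FN1, which encodes fibronectin, had the most counts of all members, with 14684 and 15823 counts, or 842.5 and 864.8 CPM (0.04 [0.01, 0.07]), and turned to −0.01 with upper quartile scaling. SPARC, which binds collagen and takes part in fibril assembly, rose from 114 to 1138 counts, or from 6.54 to 62.2 CPM (3.23 [2.97, 3.54]), a 9.51-fold difference. It was the member with the largest rise at a mean of at least 10 CPM. POSTN, named after its values were seen, had 8 counts in shCON and 0 in shUSP12, which is 2.80-fold lower when the 0 is set to 3 counts, while the upper end of the counting interval of the ratio was 0.558.

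Because SPARC carried the largest of these rises, part of the 250 bases before its RefSeq start is shown. The part is 190 bases, chr5:151686976-151687165 on the minus strand of GRCh38.p14. Bases in exons of protein-coding genes were left out, and the stretch lies directly before the outermost annotated start of SPARC. The 190 bases hold none of the 3 motifs searched. An exon of the antisense transcript CLMAT3 overlaps 4.12% of the SPARC exon bases, and it had 0 and 1 counts.
SPARC: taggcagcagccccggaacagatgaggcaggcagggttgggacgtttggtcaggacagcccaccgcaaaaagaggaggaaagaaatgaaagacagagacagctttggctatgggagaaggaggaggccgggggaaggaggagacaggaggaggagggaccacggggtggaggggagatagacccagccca

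Ordered by counts per kilobase of exon union, scaled to 1000000 per library over all genes, FN1 led both libraries, with 179.8 and 204.9. COL4A2 was at rank 2 in shCON with 132.2 and at rank 6 in shUSP12 with 77.4, and COL4A1 at rank 3 with 129.9 and at rank 8 with 68.8. SERPINH1 went from rank 5 to 2, LOXL2 from rank 13 to 5, and SPARC from rank 23 to 12, while COL1A1 moved from rank 11 to 19. With the canonical transcript length, COL4A2 led in shCON and SERPINH1 in shUSP12. The order of the top members thus depended on the length used, whereas COL4A1 and COL4A2 lost rank with both.

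**Figure D4:**
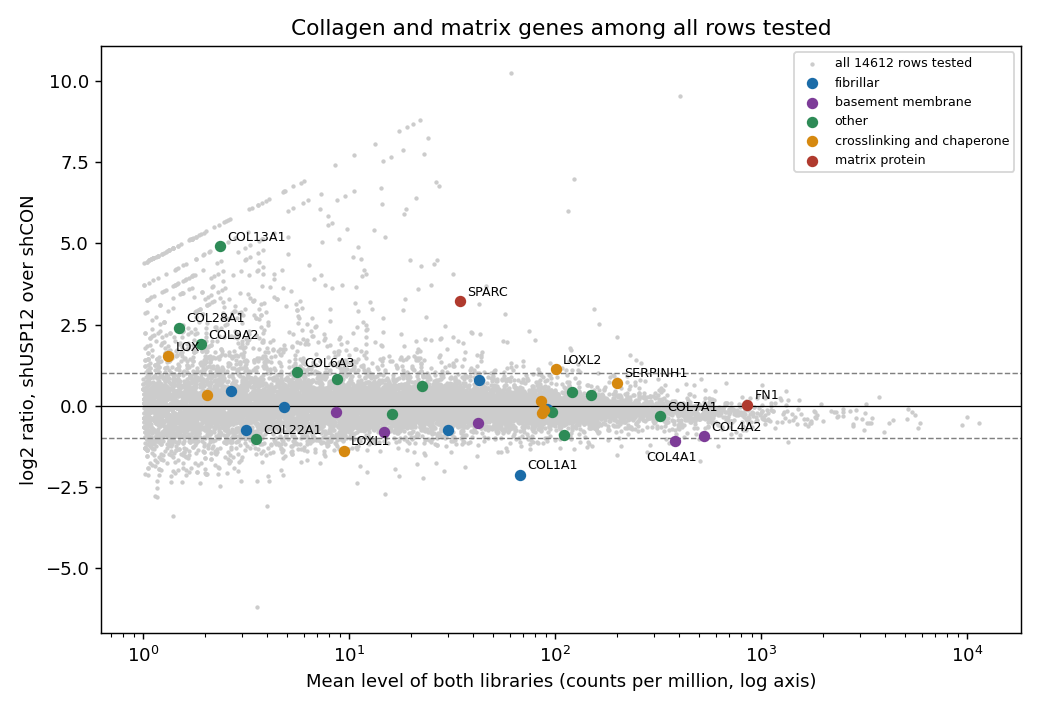
Log2 ratio of shUSP12 over shCON (vertical axis) against the mean level in CPM on a log axis (horizontal axis), for all 14612 rows tested (grey) and the members (coloured by class). Dashed lines mark 2-fold. COL1A1 (−2.11), COL4A1 (−1.07), LOXL2 (1.13) and SPARC (3.23) lie beyond them at higher levels, and COL13A1 (4.91), COL28A1 (2.41) and COL9A2 (1.90) at lower levels.

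Other matrix genes were counted in 7 lists of 109 genes together, of which 74 had a mean of at least 1 CPM, 15 rose (20.3%) and 3 fell (4.05%), beside 6.48% and 3.01% of all rows tested. The same shares of all rows are the scale for each list below. For collagen folding, modification and export, 21 of 22 genes had a mean of at least 1 CPM, 1 rose, none fell and the median was 0.18. The highest was CREB3L1, a transcription factor of collagen secretion, with 8 and 82 counts (3.04 [2.24, 4.55]), and the lowest P4HA3, a prolyl hydroxylase subunit, with 146 and 90 counts (−0.76 [−1.16, −0.38]). In the list, 20 of the 21 did not pass the threshold.

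Of 6 procollagen processing genes with a mean of at least 1 CPM, 2 rose and 1 fell, with ADAMTS14, an N-propeptidase, at 13 and 149 counts (3.28 [2.63, 4.39]) and TLL1, a C-propeptidase, at 56 and 10 counts (−2.36 [−3.69, −1.57]). Of 3 small leucine-rich proteoglycans, which coat fibrils, none passed the threshold, from FMOD with 58 and 51 counts (−0.25) to LUM with 788 and 1103 counts (0.41). Of 14 elastic fibre genes, 3 rose and 1 fell, with FBLN2 at 1 and 581 counts, a log2 ratio of 7.66 [6.63, 14.42], and FBLN1 at 2617 and 1127 counts (−1.28 [−1.39, −1.18]). The 2 fibulins thus differed in opposite directions.

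Of 9 basement membrane genes that are neither collagens nor laminins, 3 rose, none fell and the median was 0.42. Their summed level was 1802 CPM in shCON and 1801 CPM in shUSP12, and AGRN alone gave 1119 and 1115 CPM of it. The genes that rose by 2-fold had at most 36 counts in shCON. SMOC1 (1350 and 2266 counts, 0.68 [0.58, 0.78]) was higher by less than 2-fold. HSPG2 (8378 and 7925 counts, −0.15 [−0.19, −0.11]) and NID2 (1767 and 1623 counts, −0.19 [−0.29, −0.09]), named with AGRN and SMOC1 after their values were seen, had intervals below 0. Total counts alone moved the median of all rows by 0.13, which is close to the size of the HSPG2 and NID2 differences. FREM2 had 0 and 51 counts, and NID1, which links type IV collagen to laminin, had 316 and 212 counts (−0.64 [−0.90, −0.39]). Of 14 matricellular genes, 2 rose and 1 fell, from SPON1 with 321 and 64 counts (−2.36 [−2.81, −2.01]) to CCN3 with 105 and 286 counts (1.36 [1.05, 1.71]). The other that rose was TNC, named after its values were seen. TNC had 2589 and 6863 counts, or 148.5 and 375.1 CPM (1.34 [1.27, 1.40]).

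Of 7 collagen receptors, 4 rose (57.1%, beside 6.48% of all rows tested) and none fell, with a median of 1.38, which is the value of ITGA10 (11 and 33 counts, [0.49, 2.65]). ITGA1, the integrin chain that binds type IV collagen, was highest, with 186 and 818 counts, or 10.7 and 44.7 CPM (2.06 [1.84, 2.30]), and ITGA11, a receptor for fibrillar collagen, was lowest, with 33 and 28 counts (−0.29 [−1.09, 0.46]). DDR2, ITGA10 and OSCAR were the others that rose, all at a mean under 10 CPM, and were named after their values were seen. This list had the highest median of the 7, but of its 3 genes with a mean of at least 10 CPM only ITGA1 rose by 2-fold. ITGA2 (271 and 551 counts, 0.95 [0.74, 1.17]) and DDR1 (2612 and 3297 counts, 0.27 [0.19, 0.34]) were higher by less.

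**Figure D5:**
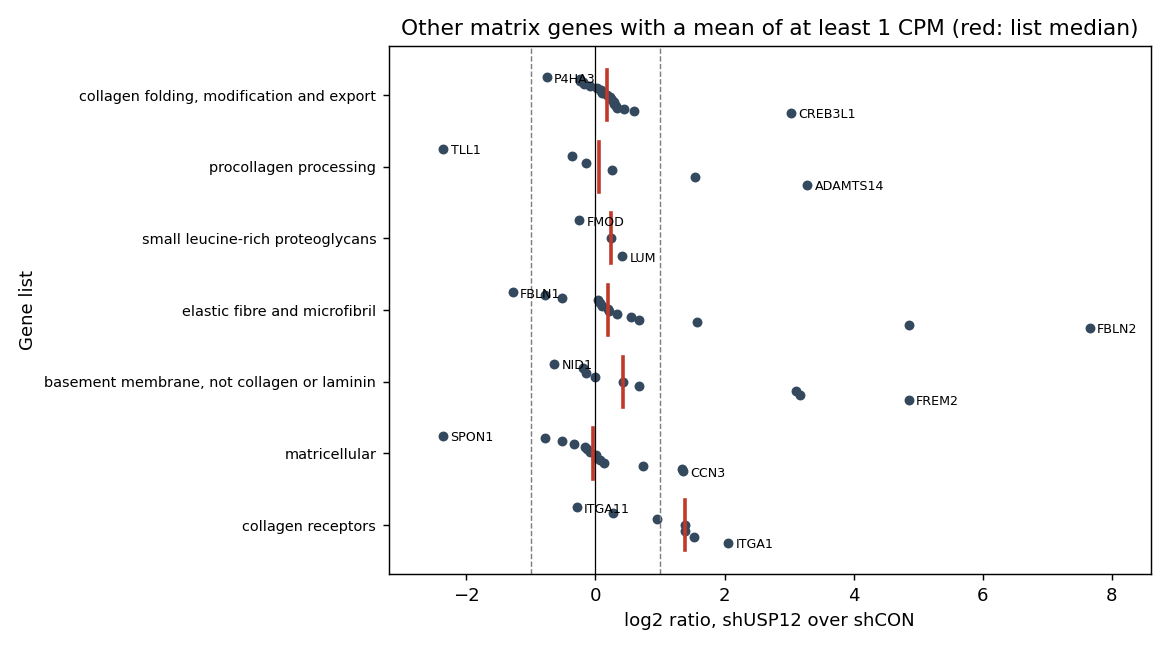
Log2 ratio of shUSP12 over shCON (horizontal axis) for the genes of the 7 other matrix lists with a mean of at least 1 CPM (points, 1 row per list), with the list median in red and dashed lines at 2-fold. The collagen receptors have the highest median, 1.38, and FBLN2 is the farthest point, at 7.66.

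Markers of cells that make collagen in tissue were measured beside these values. Of 10 fibroblast markers, 4 were at 0 in shCON and 2 in shUSP12, and the summed level was 78.5 and 98.5 CPM, nearly all of it DCN (481 and 597 counts) and LUM. Of the other fibroblast markers, FAP had 60 and 62 counts, PDGFRB 25 and 11, and THY1 12 and 11. TCF21 had 0 and 9 counts, PDGFRA 0 and 7, SFRP2 0 and 2, MEOX2 2 and 0, and DPT 0 in both. Of 8 endothelial markers, the sum was 46.7 and 34.1 CPM, nearly all EGFL7 (789 and 561 counts). The others went both ways. KDR had 0 and 32 counts, VWF 1 and 13, TEK 4 and 5, and ROBO4 0 and 3. PECAM1 had 10 and 7 counts, CLDN5 7 and 0, and CDH5 3 in both. The 8 leukocyte markers summed to 6.37 and 6.50 CPM. In bulk RNA, fewer cells of a type and less RNA per cell cannot be told apart, and the part of these markers in the collagen values was not tested.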

How the data were processed

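RNA from 1 shCON and 1 shUSP12 library was sequenced by the authors. The authors deposited unnormalised counts, whole numbers of fragments for each gene. The methods name Seqtk, Hisat2 and Stringtie and GRCh38, whereas the submitters' processing notes name Trimmomatic, HISAT2 2.0.4 and HTSeq 0.6.0. The annotation release and the use of strand in counting are not given in the sources used here. The kit was stranded. Counting of uniquely mapped fragments leaves out those that fit several copies of a gene. In each table, 91 lines without a count were left out.

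CPM was computed in R 4.3.3 with edgeR 4.0.16 and its TMM factors (0.955 for shCON, 1.05 for shUSP12). Ratios had 0.1 CPM added, rows needed a mean of 1 CPM, and 2-fold was the threshold. Intervals were exact Clopper-Pearson for ratios and shares and exact conditional for odds, at 95%, with a limit of 3 counts. Coordinates and lengths came from GENCODE 44, in which 99.1% of Ensembl identifiers were found. Python 3.11.15, NumPy 2.4.6, pandas 2.3.3, SciPy 1.17.1 and Matplotlib 3.10.9 were used. The procedure was also run on simulated counts that held counting error only, so that run says nothing of variation between cultures. Scalings with DESeq2 1.42.0 size factors, upper quartiles and total counts, and other pseudocounts, filters, thresholds and classes, were alternatives.

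Named genes were USP12, members with a mean of at least 1 CPM or at least 20 counts, and the highest and lowest gene of each matrix list. Marker genes were named after their values were seen. Members and lists were chosen with earlier results of these data known. With 1 library per group there is no replicate, and no test was made.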

Additional observations from a re-analysis of the deposited data

How the results depend on the processing

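The direction of no member past the 2-fold threshold changed under the scalings and pseudocounts tried, and of 175 values of the 35 members under 5 alternatives, 157 stayed inside the member's counting interval and 18 did not. USP12 ranged from −1.81 to −1.63. With total counts alone, the fibrillar median turned from −0.10 to 0.028, the median of the other chains became 0.57 and 2 members fell instead of 4. The other chains' median was 0.34 at a mean of at least 5 CPM, 0.76 as a mean, 0.62 with types VII, XV and XVIII moved to the basement membrane class, whose median then became −0.53, and −0.091 as a summed level, where the fibrillar chains gave −0.50. The mean of crosslinking and matrix genes was 0.54, beside a median of 0.25. Against 7 higher and 4 lower, the counts were 15 and 8 without a filter (51 genes), 12 and 8 at a mean of 0.1 CPM (47 genes), 3 higher at 5 CPM (26 genes), 11 and 9 at 1.5-fold, 3 and 1 at 4-fold, and 2 and 2 at 10 CPM. The sums and the filter at 10 CPM were chosen after seeing the data. The depth limits 18 members with at most 3 counts in at least 1 library. No paired analysis was possible because the design has 1 library a group. Intervals cover counting error only, and variation between cultures cannot be seen.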
